A study of Mus musculus with 6 samples.

Results

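Adipocytes of the mammary fat pad are made under a cascade of transcription factors and release hormones called adipokines, and 10 genes of this program were followed from the normal gland into the mammary tumor. The genes were the rows of the deposited table whose symbol was Pparg, Cebpa, Cebpb, Cebpd, Slc2a4, Adipoq, Lep, Retn, Cfd or Rbp4. All 10 were found among 15280 genes. Of the 10, 8 were called lower in tumors, as were 13.7% of all genes, Cebpb was called higher, as were 14.5%, and Cebpd did not pass the test.

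RNA-Seq was performed on 1 tumor and on the normal adjacent mammary gland from each of 3 female BK5.ATF3 mice, which makes 6 libraries. Each is named by M for gland or T for tumor and the mouse's number. In this line the bovine keratin 5 promoter, written BK5, drives the transcription factor ATF3 in basal epithelial cells. The mice had raised a litter, the usual age at which tumors arose in the line was 6 to 12 months, and tissue was taken when the tumor was 1.5 cm long. Glands and tumors alike carried the transgene (genotype label ATF3 transgenic), the gland came from a mouse that bore a tumor, and no wild-type gland was compared here.

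In the textbook order of adipogenesis, the early factors C/EBPβ and C/EBPδ switch on PPARγ and C/EBPα, which then hold each other on and induce the genes of the mature fat cell. PPARγ is a nuclear receptor for lipids that pairs with RXRα, and the C/EBP proteins are leucine zipper factors, as ATF3 is. The mature cell takes up glucose through GLUT4, the product of Slc2a4, and secretes adiponectin (Adipoq), leptin (Lep), resistin (Retn), adipsin (Cfd) and retinol-binding protein 4 (Rbp4).

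The depth was between 4750989 and 7806908 fragments on genes per library, and a floor of 3 fragments corresponded to between 0.393 and 0.610 CPM, counting error only. The levels below are in CPM, fragments scaled to the authors' effective library size. Differences are log2 fold changes of tumor over gland on the log2(CPM + 0.5) scale, with standard errors (SE) and limma's Benjamini-Hochberg adjusted p over all genes. A gene was called where the adjusted p was at most 0.05 and the change at least 2-fold. Atf3 itself was at 4.47, 8.09 and 22.6 CPM in glands M11035, M11640 and M9232, and at 13.4, 18.3 and 19.3 CPM in tumors T11035, T11640 and T9232. It was not called (0.80, adjusted p = 0.223 in limma), and whether its row counts the transgene is not given in the sources used here. All values below list the mice in this order.

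The cell type markers differed between the tissues. For comparison, 13.7% of all genes were called lower in tumors and 14.5% higher. The 10 adipocyte markers were all called lower in tumors, and their summed level was between 3354 and 6685 CPM in glands and between 161 and 216 CPM in tumors. In bulk tissue, fewer adipocytes and less RNA per adipocyte cannot be told apart, and this holds for each result that follows. Of 10 epithelial markers, 8 were called higher and Elf5 lower, with sums of 251 to 580 CPM in glands and 2042 to 2701 CPM in tumors. None of 7 adipocyte progenitor markers was called lower and Pdgfrb was called higher, with sums of 364 to 842 CPM in glands and 750 to 1078 CPM in tumors. Glands M11035 and M11640 also held skeletal muscle transcripts: the 10 muscle markers summed to 4380, 1628 and 6.98 CPM in the glands and to 9.44 to 22.1 CPM in the tumors. In gland M9232, the muscle markers Acta1 and Ckm were at 0.

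**Figure D1:**
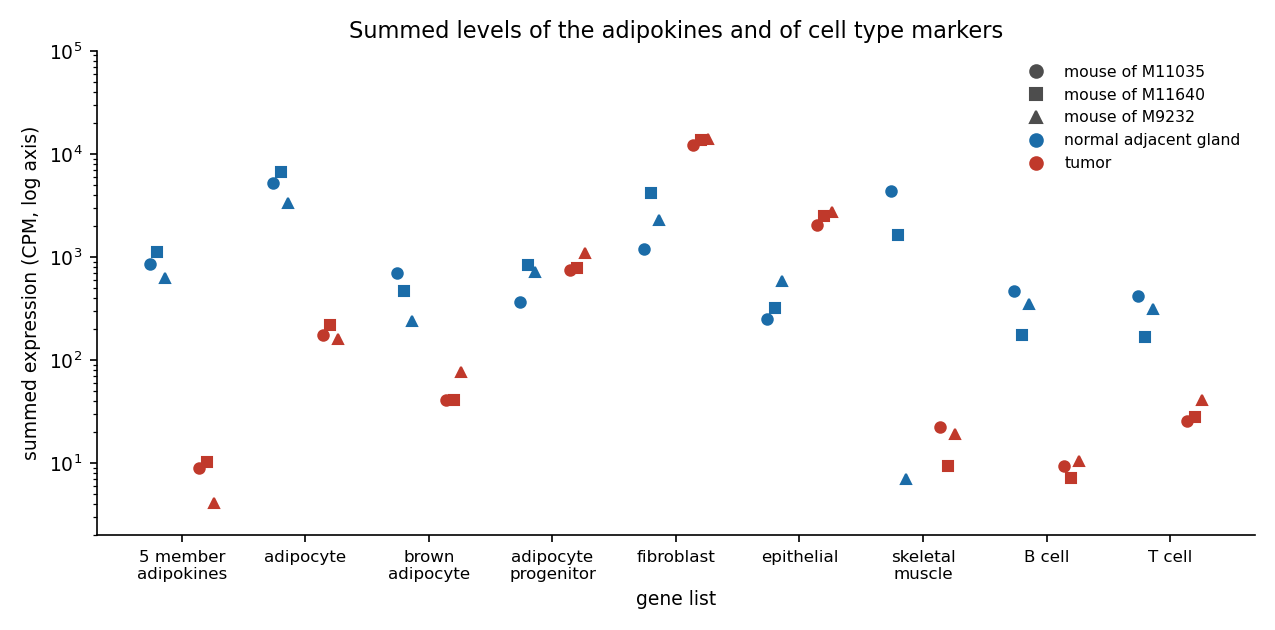
Summed CPM (log axis) of the 5 adipokines among the members and of 8 lists of cell type markers in each library, with blue points for glands, red points for tumors and a symbol for each mouse. Adipokines lie between 622 and 1114 CPM in glands and between 4.05 and 10.2 CPM in tumors, and the muscle markers separate gland M9232 from the other two.

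RefSeq promoter sequence was at hand for 8 members with 11 start sites, all except Slc2a4 and Cebpd, and each stretch matched mm9 at exactly 1 place. The 4 stretches below are the 120 bases before a start site. They were chosen to set the 3 transcription factor genes with an entry beside Lep, an adipokine gene with a C/EBP match close to its start. Of the starts listed for Pparg, the one shown was the only one with a C/EBP match. Capitals mark matches to the C/EBP letters TTGCNNAA on either strand. All lie on the plus strand, at chr6:29010101-29010220 (Lep), chr6:115371964-115372083 (the third listed start of Pparg), chr7:35904192-35904311 (Cebpa) and chr2:167514295-167514414 (Cebpb).
Lep: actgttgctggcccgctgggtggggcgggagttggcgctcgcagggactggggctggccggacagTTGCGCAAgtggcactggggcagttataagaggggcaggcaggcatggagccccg
Pparg: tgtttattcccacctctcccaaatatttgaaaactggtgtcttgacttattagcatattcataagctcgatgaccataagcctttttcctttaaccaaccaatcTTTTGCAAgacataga
Cebpa: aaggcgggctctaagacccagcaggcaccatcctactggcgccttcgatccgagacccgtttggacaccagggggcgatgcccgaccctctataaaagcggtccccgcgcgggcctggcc
Cebpb: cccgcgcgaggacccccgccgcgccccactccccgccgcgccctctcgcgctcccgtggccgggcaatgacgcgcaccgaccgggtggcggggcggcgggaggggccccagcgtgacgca

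In Lep the match began 55 bases before the start, and at the third start of Pparg 16 bases before it. Another match began 215 bases before that Pparg start, outside the stretch shown. In windows of 250 bases before to 50 after a start, TTGCNNAA was found in 3 of the 11 member promoters, those of Lep, the third Pparg start and a start of Rbp4, and in 10.8% of all 32851 promoters. The letters CCAAT were found in 4 of 11 (37.4% of all), TATAAA in 4 of 11 (13.6%) and AGGTCA, the repeat unit of nuclear receptor elements, in 2 of 11 (16.3%), each on either strand. A match describes letters in this window and not a bound site. Cebpa and Cebpb, whose RNA moved in opposite directions, both lacked TTGCNNAA in the window, as did Adipoq, Retn and Cfd.

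Pparg, the gene of the receptor at the center of the program (mm9 6:115311239-115440419), was at 118, 140 and 59.2 CPM in glands and at 4.28, 11.7 and 10.2 CPM in tumors. All tumors were below all glands. The mean fell from 106 ± 41.7 to 8.71 ± 3.91 CPM (SD, n = 3), a log2 fold change of -3.55 (SE 0.41, adjusted p = 0.000247 in limma). Within the mice the log2 change was -4.63, -3.53 and -2.48.

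Cebpa, which keeps PPARγ expressed and is needed for insulin-sensitive fat cells (7:35904312-35906945), was at 72.2, 88.7 and 57.3 CPM in glands and at 13.0, 15.5 and 27.0 CPM in tumors. The groups did not overlap, and T9232 had the highest level of the tumors. Cebpa fell by 1.99 on the log2 scale (SE 0.28, adjusted p = 0.000725 in limma), the smallest fall of the 8 members called lower.

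Cebpb, an early factor that also serves in epithelial and immune cells (2:167514415-167515918), moved the other way. It was at 3.66, 2.81 and 3.28 CPM in glands and at 8.93, 7.86 and 10.2 CPM in tumors. Every tumor was above every gland, and the log2 fold change was 1.34 (SE 0.23, adjusted p = 0.00221 in limma). These levels rest on 59 fragments in glands and 176 in tumors. The library kit does not keep the strand, and 312 of the 1504 exon bases of Cebpb lie opposite an exon of Tmem189. Tmem189 was at 5.49, 5.95 and 6.84 CPM in glands and at 8.19, 8.26 and 11.1 CPM in tumors, a log2 fold change of 0.55 (adjusted p = 0.0858 in limma). Epithelial markers, as given above, moved with Cebpb, as did 10 squamous markers (sums of 9.76 to 11.1 CPM in glands and 3301 to 5549 CPM in tumors), while 8 neutrophil markers split. Their sum was 80.9 to 190 CPM in glands and 820 to 1410 CPM in tumors, with S100a8, S100a9, Csf3r and Cxcr2 called higher, but Ngp and Mpo were called lower. Fibroblast marker sums were higher as well, at 1190 to 4199 CPM in glands and 12269 to 13982 CPM in tumors. All 6 B cell and all 6 T cell markers were called lower, beside 13.7% of all genes. The part of Tmem189 or of any of these cells in the Cebpb result was not tested.

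Cebpd, the other early factor (16:15887379-15888559), was at 1.63, 2.64 and 4.38 CPM in glands and at 4.28, 3.15 and 3.45 CPM in tumors. The groups overlapped, and the mice did not share a direction: the log2 change was 1.17, 0.21 and -0.31. The fitted change of 0.36 (adjusted p = 0.439 in limma) had a 95% interval from -0.44 to 1.15, which spans falls and rises, on 56 fragments in glands and 70 in tumors. The 4 adipogenic factors thus did not move together.

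**Figure D2:**
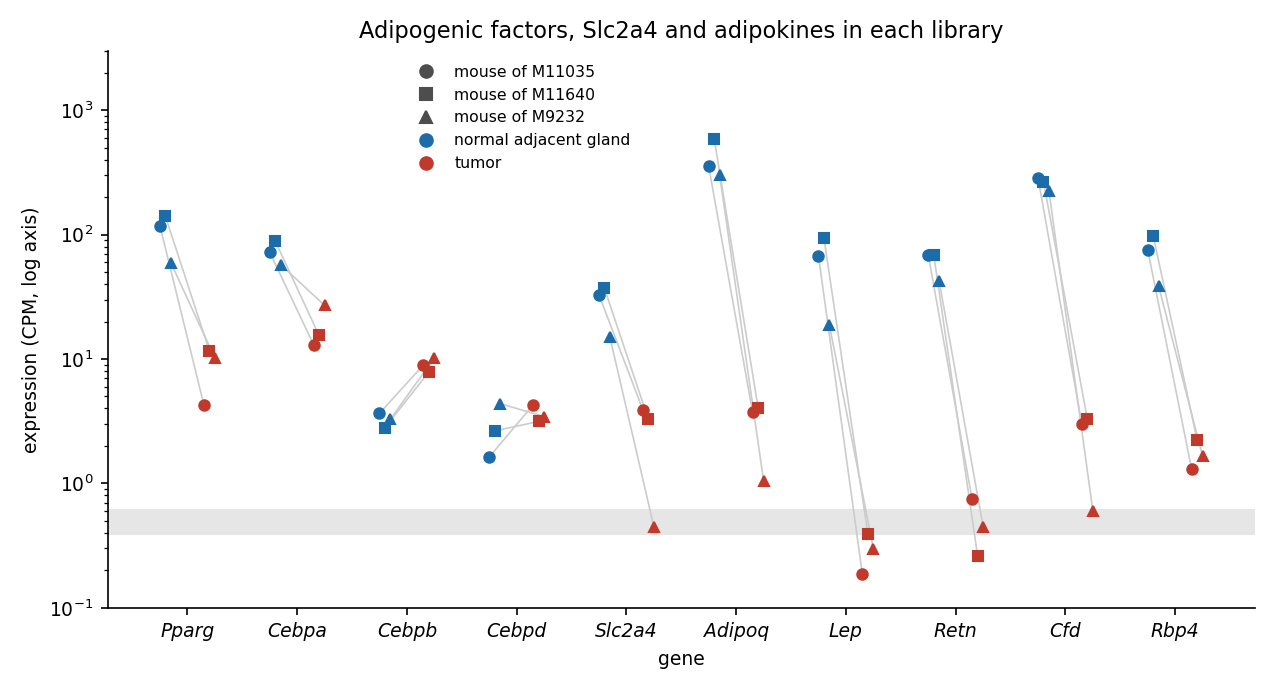
CPM (log axis) of the 10 members in each library, with blue points for glands, red points for tumors, a symbol for each mouse and a grey line joining the tissues of a mouse; the grey band is the range of the 3-fragment floor (0.393 to 0.610 CPM). The 5 adipokines drop to within a few CPM of the floor, Cebpa stays between 13.0 and 27.0 CPM in tumors, and Cebpb is higher in each tumor.

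The balance of the C/EBP genes was read as a ratio within each library, which does not depend on the library scaling. The log2 ratio of Cebpb to Cebpa was -4.30, -4.98 and -4.13 in glands and -0.54, -0.98 and -1.40 in tumors. In tumors the CPM of Cebpb thus came closer to that of Cebpa, by 3.49 on the log2 scale or 11.3-fold. CPM is not set by exon length. Per kilobase of exon, Cebpb was at 5.94, 5.23 and 6.77 CPM in the tumors and Cebpa at 4.95, 5.87 and 10.2 CPM. The log2 ratio of Cebpd to Cebpa was -5.47, -5.07 and -3.71 in glands and -1.61, -2.30 and -2.97 in tumors, a shift of 2.46. Neither ratio overlapped between the tissues. The exact two-sided permutation test gave p = 0.1 for both ratios, the smallest p that 3 against 3 allows.

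**Figure D3:**
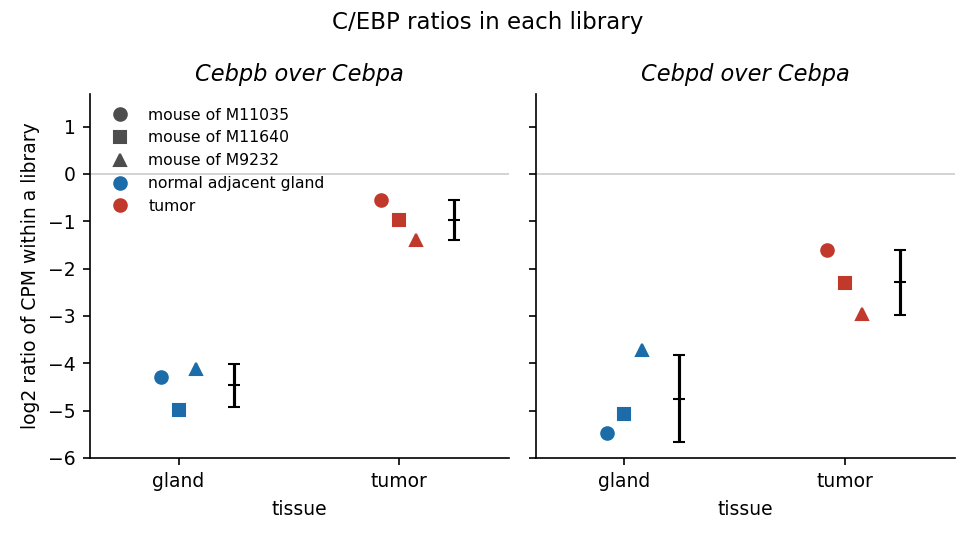
Log2 ratio of Cebpb to Cebpa (left) and of Cebpd to Cebpa (right) in each library, with blue points for glands, red points for tumors, a symbol for each mouse, and mean and SD in black (n = 3). Both ratios are higher in the tumors, by 3.49 and 2.46 on the log2 scale.

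The other C/EBP genes in the table, Cebpg and Ddit3, did not pass the test. Cebpg, which pairs with other zipper factors, was at 200.5, 266 and 251 CPM in glands and 194, 227 and 249 CPM in tumors (log2 fold change -0.10, adjusted p = 0.667 in limma). Ddit3, the stress-induced member that blocks C/EBP dimers, changed by -0.43 (adjusted p = 0.208 in limma). Cebpz, listed here for its symbol alone and not as a member of the family, changed by -0.23 (adjusted p = 0.288 in limma). Rxra, the partner of PPARγ, was at 34.4, 37.8 and 40.4 CPM in glands and 22.5, 29.9 and 39.9 CPM in tumors (log2 fold change -0.32, adjusted p = 0.281 in limma). The change of Pparg was thus not accompanied by a called change of its partner.

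Slc2a4, the insulin-responsive glucose transporter of fat and muscle (11:69756045-69761690), was at 32.7, 37.0 and 14.9 CPM in glands and at 3.91, 3.28 and 0.450 CPM in tumors. The groups did not overlap, and T9232 held 3 fragments. The log2 fold change was -3.42 (SE 0.59, adjusted p = 0.00203 in limma). The glands with the higher levels were those with muscle transcripts, and M9232, which had few, was at 14.9 CPM and still above each tumor. Without both of these glands the change was -2.62 and the call was lost (adjusted p = 0.101 in limma), with a single gland left, which was assumed to vary as the tumors do.

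Adipoq, whose hormone raises insulin sensitivity (16:23146609-23158101), was at 353, 587 and 299 CPM in glands and at 3.72, 4.06 and 1.05 CPM in tumors. Its mean went from 413 ± 153 to 2.94 ± 1.65 CPM (SD, n = 3). The log2 fold change of -7.00 (SE 0.42, adjusted p = 8.3e-06 in limma) was the 9th largest fall in the table.

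Cfd, the serine protease that cleaves factor B in the alternative complement pathway (10:79353598-79355401), was at 287, 267 and 224 CPM in glands and at 2.98, 3.28 and 0.599 CPM in tumors. It was the evenest of the 5 adipokines across glands, with a mean of 259 ± 31.8 CPM (SD, n = 3). Its log2 fold change was -6.73 (SE 0.43, adjusted p = 1.08e-05 in limma), which ranked 12th among the falls.

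Lep, the satiety hormone made in proportion to fat stores (6:29010220-29023877), was at 67.3, 93.3 and 18.6 CPM in glands and at 0.186, 0.393 and 0.300 CPM in tumors. The tumors held 1, 3 and 2 fragments, all at or under the floor. Over the pooled fragments the gland level was 185-fold that in tumors, with a 95% counting interval from 84.8 to 506. The fitted log2 change was -5.97 (SE 0.53, adjusted p = 5.48e-05 in limma), and M9232 stood lowest among the glands.

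Retn, which opposes insulin in mice (8:3655770-3660110), was at 68.9, 69.0 and 42.0 CPM in glands and at 0.744, 0.262 and 0.450 CPM in tumors, where 9 fragments were counted in all. The pooled ratio of gland to tumor was 127, with a 95% counting interval from 66.8 to 279. The fitted log2 change was -5.93 (SE 0.29, adjusted p = 3.41e-06 in limma).

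Rbp4, the retinol carrier that liver and fat release (19:38191110-38199811), was at 75.2, 97.6 and 38.3 CPM in glands and at 1.30, 2.23 and 1.65 CPM in tumors. It fell by 4.91 on the log2 scale (SE 0.35, adjusted p = 1.8e-05 in limma), the smallest fall of the 5 adipokines. For all 5 adipokines each tumor was below each gland.

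Across the 10 members, 8 were called lower, beside 13.7% of all genes, and 1 higher, beside 14.5%. In 8 members all tumors lay below all glands, which was so for 26.3% of all genes, and in 1 all tumors lay above, as in 27.6% of all genes. The median log2 fold change of the members was -4.23, and that of all genes was -0.00276. M9232 was the lowest gland for each of the 8 members that fell, and its summed adipocyte markers were the lowest too.

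**Figure D4:**
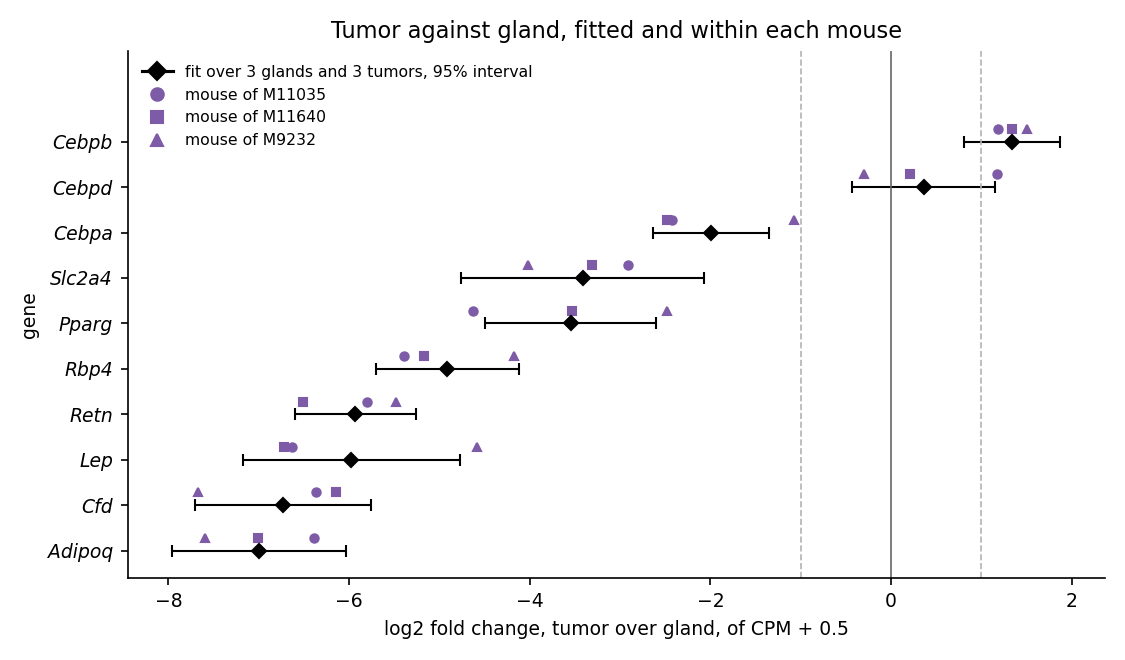
Log2 fold change of tumor over gland, on the log2(CPM + 0.5) scale, for the 10 members: black diamonds are the limma fit over 3 glands and 3 tumors with its 95% interval, purple symbols are single mice, and dashed lines mark the 2-fold threshold. The fitted changes run from -7.00 for Adipoq to 1.34 for Cebpb, and the interval of Cebpd spans 0.

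Set per kilobase of exon, the levels can be ordered approximately between genes, for the 9 members other than Cebpd. The length merged all GENCODE vM1 exons of a gene, whereas the authors counted fragments on RefSeq genes. In glands Adipoq (299 CPM per kb) and Cfd (281) stood first and overlapped each other. Rbp4 (54.3), Pparg (53.2), Retn (38.0), Cebpa (27.6), Lep (17.8) and Slc2a4 (9.96) followed, each overlapping the next. Cebpb came last at 2.16 CPM per kb and did not overlap Slc2a4. In tumors the highest means were those of the factors, with Cebpa at 7.02, Cebpb at 5.98 and Pparg at 4.39 CPM per kb, whose ranges overlapped in turn. Pparg also overlapped Cfd and Adipoq, and in T11035 it was at 2.16 CPM per kb, below Cfd (3.23) and Adipoq (2.69). Cfd (2.47), Adipoq (2.13), Rbp4 (1.33) and Slc2a4 (0.898) followed, and Retn (0.307) and Lep (0.0874) were the lowest.

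Each member was also divided by the summed CPM of the 10 adipocyte markers in the same library. By this ratio Adipoq was lower in tumors by 2.55 on the log2 scale, Lep by 2.70, Retn by 2.29 and Cfd by 2.41, each without overlap. Rbp4 was lower by 0.53. The ratio of Pparg was higher by 1.11 and that of Cebpa by 2.72, also without overlap. The largest shifts were those of Cebpb (6.22) and Cebpd (5.18), neither of which was lower in tumors in CPM. Fabp4, the fatty acid carrier of fat cells, made up 72.9% to 86.4% of the marker sum. Without it, a choice made after the values were seen, the shifts were -1.81 for Adipoq, -1.96 for Lep, -1.55 for Retn, -1.67 for Cfd, 1.86 for Pparg and 3.47 for Cebpa. That of Rbp4 turned to 0.21 with overlap. Slc2a4 overlapped under either sum, with shifts of 0.87 and 1.62. The exact two-sided permutation test gave p = 0.1 for each ratio without overlap, the smallest p possible. The markers themselves fell unevenly, with log2 fold changes from -7.62 for Gpd1 to -3.23 for Lipe and a median of -5.54. Cidec (-6.78), Acvr1c (-6.53) and Plin1 (-6.38) lay between Adipoq (-7.00) and Retn (-5.93). Fabp4 (-4.55), Pnpla2 (-4.86), Lgals12 (-4.30), Adrb3 and Aqp7 fell less than Retn. The shifts thus depend on the markers summed. Whether Adipoq, Cfd, Lep and Retn fell beyond the loss of adipocyte transcripts was not tested.

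Genes that PPARγ is known to induce fell with it. Of 24, 22 were called lower and 1 higher (median log2 fold change -4.50), beside 13.7% and 14.5% of all genes. The list shares 8 genes with the adipocyte markers. Pck1, which feeds glycerol synthesis, fell by 8.43, Gpd1 by 7.62, the lipid droplet genes Cidec by 6.78 and Plin1 by 6.38, and Fabp4 by 4.55. Cidec was at 188, 223 and 135 CPM in glands and at 1.67, 1.97 and 0.300 CPM in tumors. Fabp5, a fatty acid carrier also found in keratinocytes, was the gene called higher. It was at 120, 190 and 144 CPM in glands and 543, 681 and 680 CPM in tumors (log2 fold change 2.09). Gpihbp1, which anchors lipoprotein lipase on endothelium, was not called (-1.11, adjusted p = 0.0535 in limma).

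Of 24 other factors that promote adipogenesis, 14 were called lower and 4 higher (median log2 fold change -1.37), beside 13.7% and 14.5% of all genes. Ppara, the PPAR of fatty acid oxidation, was at 53.9, 50.9 and 20.7 CPM in glands and 0.186, 0.524 and 1.05 CPM in tumors, and fell by 5.24. Ppargc1a, the coactivator of mitochondrial genes, fell by 3.95, Nfia by 2.66 and Klf15 by 2.39. Klf5 and Klf4, which are also epithelial factors, rose by 3.87 and 2.62 on the log2 scale, and Egr2 and Bmp4 were called higher too. Klf5 was at 3.25, 2.97 and 5.75 CPM in glands and 69.2, 55.2 and 65.5 CPM in tumors.

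Of 19 inhibitors of adipogenesis, 8 were called higher and 3 lower (median log2 fold change 0.66), beside 14.5% and 13.7% of all genes. Inhba, which encodes an activin subunit, was at 4.47, 2.31 and 2.74 CPM in glands and 172, 272 and 182 CPM in tumors, a rise of 5.84 on the log2 scale. Gata2, which holds preadipocytes back, rose by 3.98, and the ligand Wnt5a by 3.13. Wnt6 and Wnt10b, also called higher, were near the floor in glands, with means of 0.291 and 0.508 CPM, and averaged 22.1 and 7.26 CPM in tumors. Klf2 fell by 1.83, and Foxo1 and Nr2f2 were called lower as well. Inhibitors thus moved in both directions, more of them up.

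**Figure D5:**
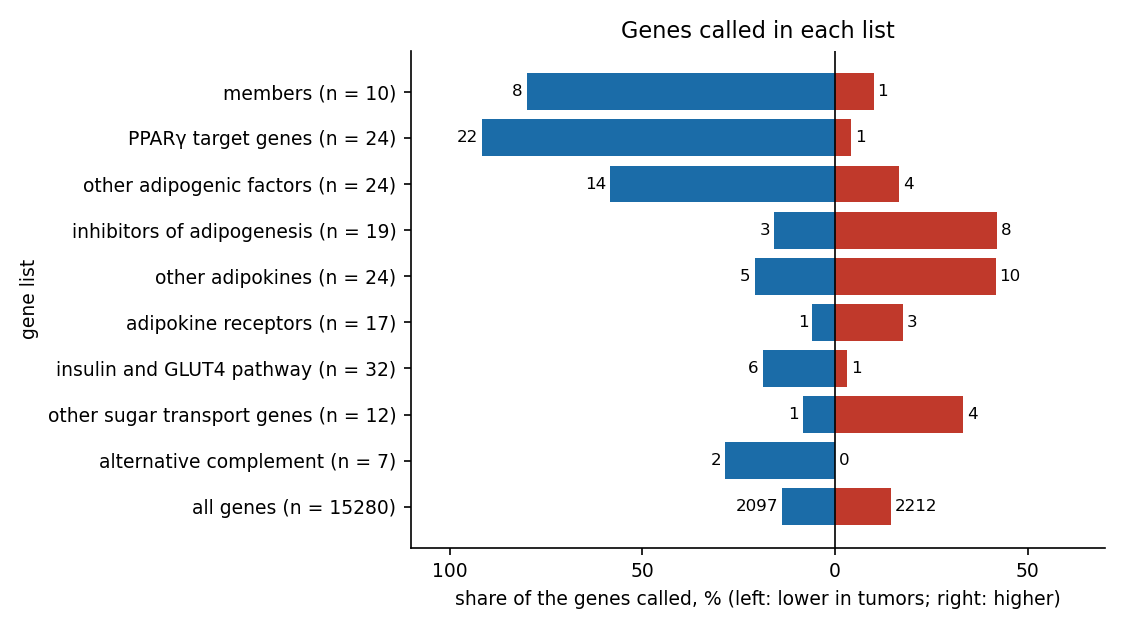
Share of genes (%) called lower (blue, left) and higher (red, right) in tumors for the members and 8 lists of related genes, with all genes at the bottom; numbers beside the bars count the genes. The PPARγ target genes (22 of 24 lower) split much as the members did, whereas inhibitors of adipogenesis and other adipokines hold more genes called higher than lower.

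Other secreted products did not follow the 5 adipokines as a group. Of 24 other adipokines, 5 were called lower and 10 higher (median log2 fold change 0.63), beside 13.7% and 14.5% of all genes. Nrg4, a fat-derived growth factor, was at 55.3, 89.0 and 49.9 CPM in glands and 3.72, 3.28 and 3.90 CPM in tumors, a fall of 3.94, and Retnla, a relative of resistin, fell by 5.26. C1qtnf3, a relative of adiponectin, rose by 6.00, from 2.03, 2.31 and 1.09 CPM to 99.2, 174 and 170.1 CPM. Serpina12 and Il6, called higher too, averaged 0.428 and 0.220 CPM in glands, near the floor, and 12.5 and 6.76 CPM in tumors. Nampt was at 281, 369 and 376 CPM in glands and 257, 283 and 287 CPM in tumors and was not called.

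Of 17 adipokine receptor genes, 1 was called lower and 3 higher (median log2 fold change 0.20), beside 13.7% and 14.5% of all genes. Of the adiponectin receptors, Adipor2 fell by 2.11 (SE 0.24, adjusted p = 0.000195 in limma), from 226, 322 and 181 CPM to 43.2, 63.3 and 58.9 CPM. Adipor1 was at 45.5, 50.2 and 51.3 CPM in glands and 48.8, 51.0 and 58.1 CPM in tumors (log2 fold change 0.10, adjusted p = 0.628). Lepr, the leptin receptor, was at 52.7, 37.8 and 69.5 CPM in glands and 62.5, 70.1 and 47.8 CPM in tumors, and the groups overlapped (log2 fold change 0.20, adjusted p = 0.551).

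Stra6, which takes up retinol from retinol-binding protein 4, rose while Rbp4 fell. It was at 0.813, 0.330 and 0.684 CPM in glands and at 19.7, 37.7 and 25.8 CPM in tumors, from near the floor, a log2 fold change of 4.65 (SE 0.32, adjusted p = 1.51e-05 in limma). C3ar1, the receptor of the complement fragment C3a, rose by 1.93 (adjusted p = 0.00976 in limma), and without the glands that held muscle transcripts it was 1.31 higher but not called (adjusted p = 0.0898). Among the 7 other genes of the alternative complement pathway in which Cfd acts, 2 were called lower and none higher. The shares of all genes were 13.7% and 14.5%. C3 was at 1053, 1339 and 1871 CPM in glands and 141, 298 and 521 CPM in tumors (log2 fold change -2.30, adjusted p = 0.00285 in limma), and the regulator Cd55 fell by 2.65. Cfb, the substrate of adipsin, changed by 0.54 (adjusted p = 0.23).

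Of the 12 other sugar transporter and hexokinase genes, 4 were called higher and 1 lower, beside 14.5% and 13.7% of all genes. Slc2a1, the basal glucose transporter GLUT1, was at 24.2, 16.7 and 25.3 CPM in glands and at 153, 158 and 212 CPM in tumors, a log2 fold change of 2.96 (SE 0.21, adjusted p = 1.82e-05 in limma). Slc2a3 rose by 3.22, from 24.2, 15.4 and 19.8 CPM to 73.7, 243 and 357 CPM. Slc2a5, the fructose transporter, fell by 3.13. Glucose transporter transcripts thus changed in opposite directions, Slc2a4 down and Slc2a1 and Slc2a3 up.

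Of 32 genes of insulin signaling and GLUT4 traffic, 6 were called lower and 1 higher (median log2 fold change -0.11). Of all genes, 13.7% were called lower and 14.5% higher. Pik3r1, the regulatory subunit of phosphoinositide 3-kinase, fell by 2.02, and Tbc1d4, which gates GLUT4 vesicles, by 1.51. Insr, the insulin receptor, was at 281, 323 and 308 CPM in glands and 177, 174 and 191 CPM in tumors. Its log2 fold change of -0.75 passed the test (adjusted p = 0.00189 in limma) but not the 2-fold threshold. Akt2 changed by -0.70 (adjusted p = 0.0509 in limma). Irs1, the insulin receptor substrate, changed by -1.14 (adjusted p = 0.018 in limma) and lost its call without gland M11640 (-0.83), tumor T11640 (-1.17, adjusted p = 0.0547) or tumor T9232 (-0.98). Without the glands that held muscle transcripts, Irs1 changed by -0.45 (adjusted p = 0.277 in limma). Tbc1d4 kept a change of -1.40 there but was not called with a single gland left (adjusted p = 0.0627 in limma).

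The genes most like Adipoq and Cebpb over the 6 libraries were taken from 14711 genes, by Pearson's r of log2(CPM + 0.5), as a description. The genes nearest Adipoq were Cidec, Adhfe1, D9Ertd402e, Arxes2 and Scd1, with r between 0.998 and 0.999. D9Ertd402e shared the pattern at a smaller size, with a log2 fold change of -1.20 against -6.78 for Cidec. Those nearest Cebpb were Lmna, Itga3, Csf3r, Col7a1 and Zc3h12a, with r of at least 0.997. The points of each r share the split into glands and tumors.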

How the data were processed

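Total RNA of 3 tumors and 3 matched glands was made into Ovation RNA-Seq V2 libraries. The authors mapped read pairs to mm9, counted fragments per RefSeq gene and removed genes with fewer than 10 fragments; the submitters' processing notes name CASAVA 1.8.2, TopHat2 2.0.3, HTSeq 0.5.3p9 and edgeR 3.6.1. The deposited signal is CPM on edgeR's effective library size, so the same log-scale test as for CPM was used. Of the values, 100% were whole fragments within a tolerance of 1e-06, and 0 columns were left out. PCR copies were not marked, so intervals cover counting error only.

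All 15280 genes, unfiltered, were tested two-sided on log2(CPM + 0.5) by limma 3.58.1 (R 4.3.3, trended variance), in a script tested on simulated data. Replicates are separate mice. Each mouse gave a gland and a tumor, which pairs the libraries; deviations from the tissue means correlated with r = 0.107, 0.151 and 0.0168 in the mice of M11035, M11640 and M9232 (14712 genes). No libraries were copies of each other (chi-square of at least 13.0 per degree of freedom). Other scalings moved the median log2 fold change of all genes to -0.015 or 0.0029. Alternatives were edgeR 4.0.16 and DESeq2 1.42.0 on recovered fragments, other pseudocounts, scalings and filters, the replicate block and libraries left out. Members, lists and tests were chosen with earlier results of these data known. Named were all members, the genes of each list with the largest changes at a mean of at least 1 CPM, and partners of members; genes named beside them to complete a count were chosen after their values were seen. Coordinates are from GENCODE vM1 (mm9), promoters from RefSeq (GRCm38.p6) matched to mm9. By BLAST 2.17.0, 0 of 9 members had a stretch of at least 500 bases 95% identical to another gene's transcript. Cebpd, a pseudogene in GENCODE vM1, was left out of this and of levels per kilobase.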

Additional observations from a re-analysis of the deposited data

How the results depend on the processing

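Each member's log2 fold change was recomputed under 15 alternatives. Of 150 values, 148 kept the direction and the side of the threshold. The exceptions came with both glands that held muscle transcripts left out, a choice made after the data were seen: Slc2a4 changed by -2.62 and was not called, and Cebpd turned to -0.25. With the replicate block, which pairs the tissues of a mouse, no member's call changed. Pparg had an adjusted p of 0.000515 in limma with this block.

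Without both of these glands, 2 other adipogenic factors and 1 receptor were called higher and 3 insulin pathway genes lower; Lepr turned to -0.22. A pseudocount of 2 left 0 insulin pathway genes called higher and moved the Cebpb to Cebpa shift to 2.97. With single libraries left out, the insulin pathway genes called higher ranged from 0 to 1 and the other adipokines called lower from 3 to 5, with 3 without M11640, T11035 or T11640. Cebpg turned to 0.0016 without T11035 and Lepr ranged from -0.026 (without M11640) to 0.41. The cause was not tested. The fitted log2 changes of Lep and Retn, which had few fragments in tumors, ranged from -7.63 to -4.49 and from -7.02 to -4.61 over the alternatives; that of Lep was -6.66 without M9232.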

Other observations

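The brown adipocyte markers moved with the members. Ucp1, the uncoupling protein of brown fat, was at 432, 299 and 118 CPM in glands M11035, M11640 and M9232 and at 0.372, 0.393 and 0.300 CPM in the tumors of the same mice. Of the 7 brown markers 6 were called lower, beside 13.7% of all genes. The sum of the 7 ran from 237 to 696 CPM in glands and from 40.6 to 76.1 CPM in tumors. Dio2, the deiodinase that activates thyroid hormone, was the exception, with a log2 fold change of 0.37 (adjusted p = 0.384 in limma). It was at 32.6, 36.3 and 72.8 CPM in tumors T11035, T11640 and T9232. Dio2 thus made up most of the tumor sums of 40.6, 40.9 and 76.1 CPM.

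Of the other cells a mammary fat pad holds, the B cell and T cell markers were all called lower (6 of 6 each), and their sums did not overlap between the tissues. B cell markers summed to between 173 and 465 CPM in glands and to between 7.08 and 10.3 CPM in tumors, T cell markers to between 166 and 421 CPM and to between 25.3 and 41.1 CPM. Of 7 endothelial markers, 3 were called lower, with sums of 362 to 494 CPM in glands and 207 to 295 CPM in tumors. Of 10 macrophage markers, Itgam alone was called, higher, and the sums overlapped. Of 8 neutrophil markers 4 were called higher and 2 lower. Fibroblast markers had 5 of 9 called higher and none lower, and all 10 squamous markers were called higher. Of 10 muscle markers, 3 were called lower. Beside these counts stand the 13.7% of all genes called lower and the 14.5% called higher.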
